A study of Cyprinus carpio with 18 samples.

Results

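Messenger RNA of the heat shock proteins and their DnaJ cochaperones was followed through the development of common carp (Cyprinus carpio). The members were the protein-coding genes whose product name holds "heat shock protein", "heat shock cognate" or "dnaJ homolog", leaving out transcription factors and crystallins. They numbered 141 of 49264 protein-coding genes: 8 HSP90 genes, 11 HSP70 genes, 20 small heat shock proteins, 97 DnaJ genes and 5 others, these being 4 genes named as activators of the HSP90 ATPase (Aha1) and hikeshi, a nuclear import factor for HSP70. The DnaJ genes comprised 10 of subfamily A, 24 of subfamily B and 63 of subfamily C, 14 of them with the symbol-style name of the DnaJ heat shock protein family. Genes named as heat shock 70 kDa protein fall outside this wording, so the HSP70 members were mainly cognate (HSC71) and HSP105 genes, and no mitochondrial chaperonin was a member. The gene named endoplasmin-like, of the HSP90 family, falls outside it as well.

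The samples were wild-type whole embryos and larvae of the FFRC No.2 strain from natural spawning, with 3 libraries for each of 6 stages. In hours after fertilization these were cleavage (2), blastocyst (6), gastrulation (12), organ formation (20) and hatching (64), followed by the larva 1 day after hatching. The labels say that the RNA was pooled by stage ahead of library preparation, so p-values measure only the spread between libraries, which may be technical. The libraries were strand-specific and depleted of ribosomal RNA. No stage was heated or otherwise treated. In whole embryos, fewer cells of a type and less RNA per cell cannot be told apart.

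Chaperones keep other proteins from aggregating and help them fold. HSP70 binds short exposed stretches of unfolded chains and is driven by DnaJ proteins, whose J domain stimulates its ATPase and delivers the substrate; HSP90 acts later, on nearly folded clients such as kinases, steroid receptors and, with Unc45, muscle myosin. Small heat shock proteins hold unfolded chains without using ATP, and in vertebrates several of them are characteristic of muscle and heart.

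The shallowest library, cleavage replicate 3, had 16326813 counts in all and the deepest, gastrulation replicate 2, had 43270557. The maternal, brachyury and myogenin markers followed the labels. The maternal gene zar1 lay between 0.775 and 1.37 CPM (counts scaled to library size) in the larva, against 155 to 194 CPM at cleavage. The summed brachyury genes were highest at gastrulation (223 to 309 CPM). The 2 myogenin-like genes summed to 112 to 144 CPM at organ formation, against at most 0.136 CPM in any earlier library. Other lists were less clear. The trypsin and chymotrypsin genes, listed for exocrine pancreas, already summed to 61.3 to 73.9 CPM at gastrulation. Crystallin genes, listed for lens, had mean sums of 64.5 CPM at cleavage and 2340 CPM in the larva. Hemoglobin genes had mean sums of 3546 CPM at hatching and 1658 CPM in the larva. Larva replicate 3 had 2372 CPM summed over the list of exocrine pancreas genes, of which 40 of 45 had counts in the larva, against 52.6 and 52.8 CPM in the other larva libraries, and counts of calls that involve the larva are also given without it.

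Among the 141 members, DnaJ genes made up most of the summed level per length at cleavage and blastocyst, and HSP70 genes most of it from gastrulation on. Of the summed level of all members per unit of length, HSP70 genes made up 27.1% ± 0.123 at cleavage, 31.9% ± 1.15 at blastocyst, 59.4% ± 1.48 at gastrulation, 64.7% ± 0.821 at organ formation, 64.6% ± 0.435 at hatching and 65.7% ± 0.152 in the larva (SD, n = 3 each). DnaJ genes together made up 57.5% ± 0.432, 52.04% ± 1.48, 20.7% ± 1.48, 11.8% ± 0.0786, 11.6% ± 0.46 and 13.2% ± 0.562 over the same stages. These shares are taken within each library and do not depend on how libraries are scaled to each other. They leave out the 20 HSP70 genes outside the wording, which summed to 509.6 RPKM at cleavage and 426 RPKM at blastocyst. The endoplasmin-like gene LOC109063884 is likewise not in the HSP90 class. It was listed with the genes for folding in the endoplasmic reticulum, and held 21.6% of their 507 RPKM at cleavage. HSP90 genes held 22.1% ± 0.409 at hatching, against 10.01% ± 0.774 at cleavage. Small heat shock proteins stayed a minor part throughout, with 0.0819% ± 0.0417 at cleavage, 0.0737% ± 0.00923 at gastrulation and 1.3% ± 0.143 in the larva. The shares of HSP70 and of DnaJ did not overlap between the gastrulation and blastocyst libraries, nor between the organ formation and gastrulation libraries.

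As levels, in RPKM (reads scaled to feature length and library size) recomputed with TMM library sizes, the HSP70 sum was 739.6 ± 25.4 at cleavage, 887 ± 30.7 at blastocyst, 4696 ± 613 at gastrulation, 5663 ± 348 at organ formation, 5858 ± 540.4 at hatching and 5019.6 ± 386 in the larva (SD, n = 3 each). The HSP90 sum was 273 ± 29.4, 329 ± 19.5, 1471 ± 155, 1899.6 ± 124, 2008 ± 203 and 1469 ± 157 RPKM over the same stages. The small heat shock proteins summed to 84.5 ± 1.86 RPKM at organ formation, against 5.77 ± 0.482 RPKM at gastrulation. The step up lay at gastrulation for the HSP90 and HSP70 sums and at organ formation for that of the small heat shock proteins. At gastrulation the HSC71-like genes LOC109097335 and LOC109097342 made up 61.6% and 37.7% of the HSP70 sum. The median log2 change of the 10 tested HSP70 genes was −0.35 there, against 0.75 over all features and 0.36 over protein-coding genes. The DnaJ sum was 1567 ± 35.2, 1449 ± 41.3, 1629 ± 85.5, 1029 ± 65.7, 1045 ± 54.3 and 1004 ± 31.4 RPKM. In the deposited RPKM the DnaJ sum was instead lower at gastrulation than at blastocyst, 242 ± 42.3 RPKM at gastrulation against 426 ± 21.7 RPKM at blastocyst, while the HSP70 sum was higher there on both scales, 697 ± 154 against 261 ± 8.52 deposited RPKM.

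**Figure D1:**
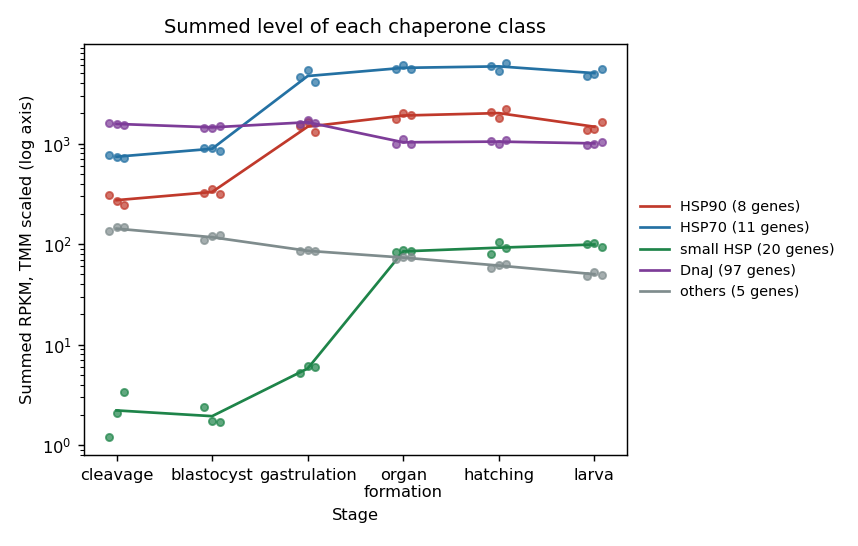
Summed level of the HSP90, HSP70, small heat shock protein, DnaJ and other member genes at the 6 stages (x axis), as RPKM recomputed with TMM library sizes (y axis, log scale); each point is 1 library and the lines join the stage means. HSP90 and HSP70 step up at gastrulation, small heat shock proteins at organ formation, and the DnaJ sum stays between 1004 and 1629 RPKM in its stage means.

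Single genes dominated the HSP90 and HSP70 sums. In the DnaJ sum the highest gene held 7.66% at blastocyst and 15.3% at gastrulation. LOC109097335, an HSC71-like gene, alone made up 49.9% of the summed level of all members in the larva, against 14.8% at cleavage. Of the 141 members, 83 had a stage mean above 10 CPM somewhere, 11 had one above 100 CPM and 19 stayed under 1 CPM at every stage. The test could be run for 129 members, and the 12 others had between 0 and 77 counts over all 18 libraries. Of the 129, 121 differed among the 6 stages in edgeR's quasi-likelihood test with Benjamini-Hochberg adjustment, where 93.7% of all tested features did. The highest stage mean of the 129 fell at cleavage for 34, blastocyst for 15, gastrulation for 27, organ formation for 6, hatching for 16 and larva for 31. In percent these were 26.4, 11.6, 20.9, 4.65, 12.4 and 24.0. Of all tested protein-coding genes 16.15%, 11.3%, 20.2%, 10.5%, 11.2% and 30.65% peaked at these stages.

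Each stage was then set against the one before it. These comparisons share stage libraries, so a high or low gastrulation value enters 2 of them. At blastocyst against cleavage 9 members rose and 18 fell, where 15.8% of all tested features rose and 6.52% fell. The counts depended on single libraries, and so did those of all features. Leaving out cleavage replicate 2 gave 26 rises and 7 falls (16185 and 2289 of 72320 features). Leaving out cleavage replicate 3 gave 16 and 8 (13247 and 2341 of 72249). Without blastocyst replicate 3, 20 members rose (16081 of 71424 features). In the main fit 10962 of 69265 features rose and 4517 fell. At gastrulation against blastocyst 45 members rose and 40 fell, where 44.4% of all features rose and 22.3% fell. At organ formation against gastrulation 40 rose and 30 fell (all features 28.1% and 19.8%), and at hatching against organ formation 24 rose and 13 fell (17.4% and 12.2%). The last count was 8 without any 1 of the 3 organ formation libraries or without hatching replicate 2. Of all features 6452 to 6677 fell in these fits, against 8427 in the main fit. At larva against hatching 6 rose and 10 fell (5.32% and 6.13%).

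The median log2 change over the 129 members was −0.02, 0.15, 0.21, 0.14 and −0.02 in these 5 comparisons, against 0.06, 0.75, 0.25, −0.01 and 0.00 over all tested features. Over all tested protein-coding genes it was 0.01, 0.36, 0.18, 0.13 and 0.04. Of these genes 12.5%, 40.6%, 31.6%, 23.2% and 7.96% rose, and 9.49%, 28.0%, 25.4%, 13.6% and 8.81% fell. Of the members 6.98%, 34.9%, 31.0%, 18.6% and 4.65% rose, and 13.95%, 31.0%, 23.3%, 10.1% and 7.75% fell. The share of rises and falls depended on the scaling of the libraries. With TMM the median change of all features at gastrulation was 0.43 to 0.50 without any 1 gastrulation library, against 0.75 in the main fit. With the library sizes implied by the authors' RPKM in place of TMM, the median change of all features shifted by −0.81 at gastrulation, 0.31 at organ formation and 0.40 at hatching (log2). On that scale 1 member rose and 24 fell at blastocyst, where 7749 and 6403 of all 69265 tested features did. At gastrulation 25 rose and 66 fell (21038 and 24506 features), and at organ formation 50 rose and 18 fell (23421 and 9185). At hatching 52 rose and none fell (18656 and 2872), and in the larva 5 rose and 3 fell (3460 and 1880). With DESeq2's size factors the larva split was 9 and 6 (4219 and 3447 features).

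**Figure D2:**
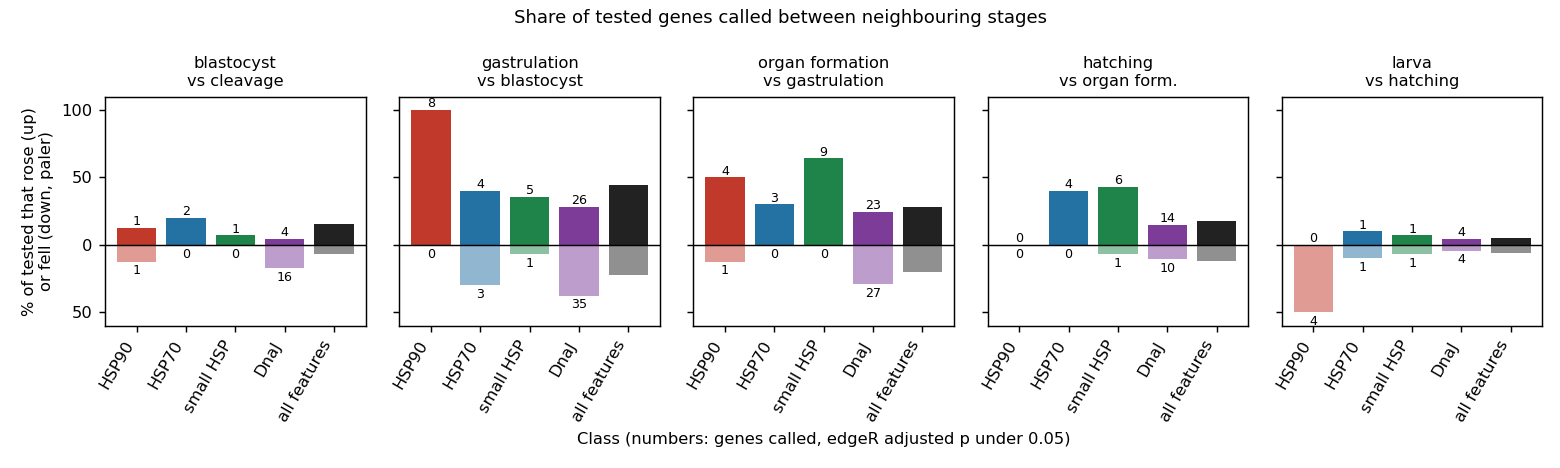
Share of tested genes that rose (bars upward) or fell (paler bars downward) in edgeR at an adjusted p under 0.05 (y axis, %), by class and over all tested features (x axis), with 1 panel for each comparison of neighbouring stages; the digits at the bars count the genes called. All 8 HSP90 genes rose at gastrulation (all features 44.4%), and 9 of the 14 tested small heat shock proteins rose at organ formation (all features 28.1%). DnaJ genes moved both ways, 26 up and 35 down at gastrulation (all features 44.4% and 22.3%).

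**Figure D3:**
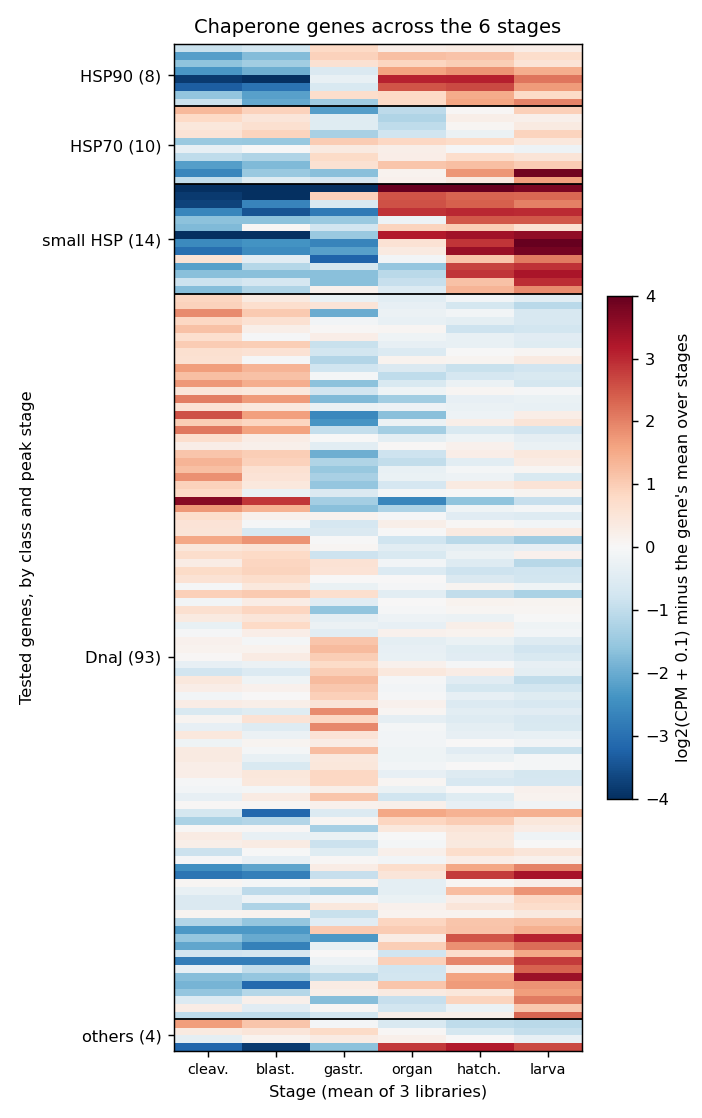
Stage means of the 129 tested members (1 line each, ordered by class and stage of the highest mean; y axis) at the 6 stages (x axis), as log2(CPM + 0.1) minus the gene's mean over stages (colour). HSP90 genes and most small heat shock proteins are low at cleavage and blastocyst, and the DnaJ genes form blocks that are highest before, at or after gastrulation.

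The HSP90 members moved together at gastrulation. All 8 rose at gastrulation against blastocyst (median log2 change 2.58), where 44.4% of all features rose (median 0.75). Not all of these calls held in every alternative, as given below. Some of these genes were close to 0 before gastrulation, and their rises there are a description only. In the larva against cleavage 8 rose, with or without larva replicate 3, where 58.5% of all features rose. The highest level per length at every stage was that of hsp90ab1, the constitutive cytosolic HSP90-beta (deposited feature length 2223 bases). Its CPM was 484, 423 and 395 in cleavage replicates 1 to 3, 499, 544 and 491 at blastocyst, 2060.1, 2237 and 1809 at gastrulation, 2166, 2566 and 2472 at organ formation, 2756, 2205 and 2908 at hatching and 1805, 1849.6 and 2246 in the larva. Every gastrulation library lay above every blastocyst library, and no later library was below 1805 CPM (log2 change 1.99, SE 0.12, adjusted p = 4.6e-12 at gastrulation against blastocyst, edgeR). A gene named HSP90-beta-like, LOC109110404 (1419 bases), held 644, 707 and 573 CPM at gastrulation, against 99.2, 111 and 90.5 CPM at blastocyst, also without overlap (log2 change 2.68, SE 0.12, adjusted p = 4.8e-14). With the scaling by the authors' RPKM both rises at gastrulation kept their call, with a log2 change of 1.00 for hsp90ab1.

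The ratio of the HSP90-beta pair shifted with the step. Per unit of length, hsp90ab1 stood at 3.83 ± 0.0854 times LOC109110404 at cleavage, 3.27 ± 0.171 times at blastocyst and 2.02 ± 0.0142 times at gastrulation (SD, n = 3), and between 1.99 and 2.27 times in the means of the later stages. The pair was singled out after its values were seen, and the ratio does not depend on library scaling. Carp has a duplicated genome, and the treatment of reads that match more than 1 gene copy was not given in the sources used here. Levels of individual copies in a family are uncertain for that reason, also where an annotated feature is short.

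The HSP90-alpha genes rose at gastrulation and again at organ formation. HSP90-alpha is the stress-inducible cytosolic form, and in zebrafish one of its copies serves muscle myosin folding. LOC109053681 (HSP90-alpha-like, 2407 bases) held 119.7, 142 and 134 CPM at organ formation, against 23.8, 31.7 and 30.3 CPM at gastrulation. The organ formation libraries lay above all gastrulation libraries (log2 change 2.20, SE 0.15, adjusted p = 6.6e-11, edgeR), and its smaller rise at gastrulation (log2 change 1.36) was lost with the scaling by the authors' RPKM (log2 change 0.39, adjusted p = 0.094). The short HSP90-alpha 1-like features LOC109053680 (354 bases) and LOC109076910 (595 bases) were close to 0 before gastrulation. LOC109053680 had 0.0474, 0.297 and 0.0726 CPM at blastocyst, 3.48, 3.74 and 3.41 CPM at gastrulation and 35.4, 39.6 and 38.2 CPM at organ formation. It rose in both steps (log2 change 4.65, SE 0.41, adjusted p = 1.6e-09 at gastrulation; log2 change 3.41, SE 0.28, adjusted p = 1.2e-09 at organ formation). LOC109076910 rose in both as well, with log2 changes of 2.48 and 3.17. A feature close to 0 before gastrulation can pass the filter on low counts through later stages alone. The rises of these features at gastrulation, with the p-values, are therefore a description only.

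Both HSP90-alpha 1-like features were lower in the larva than at hatching. LOC109076910 had 19.9, 20.8 and 18.3 CPM in the larva against 32.3, 46.6 and 35.6 CPM at hatching, without overlap (log2 change −0.96, SE 0.19, adjusted p = 0.0022, edgeR). This call held without each library in turn. LOC109053680 fell by a similar amount (log2 change −0.99, SE 0.24, adjusted p = 0.0093), a call that was lost without hatching replicate 2 (adjusted p = 0.066 in edgeR). The longer LOC109053681 had 100.3, 117 and 136 CPM in the larva against 128, 171 and 156 CPM at hatching, a difference that did not pass the test (log2 change −0.37, SE 0.14, adjusted p = 0.1). The falls of hsp90ab1 (log2 change −0.42, adjusted p = 0.024) and of LOC109110404 (log2 change −0.42, adjusted p = 0.02) in the larva were lost without hatching replicate 1 or 3 or larva replicate 1 or 2. Among the remaining HSP90 genes, LOC109110413 (HSP90-beta-like, 686 bases) rose at gastrulation (log2 change 2.96) and had no other call between neighbouring stages.

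Mitochondrial HSP90 (TRAP1) peaked at gastrulation. LOC109062167 (named heat shock protein 75 kDa, mitochondrial-like, 2463 bases) had 49.95, 51.7 and 52.7 CPM at blastocyst, 148, 162 and 134 CPM at gastrulation and 97.2, 105 and 105 CPM at organ formation. The gastrulation libraries were above all others of these stages (log2 change 1.53, SE 0.11, adjusted p = 5.9e-11 against blastocyst, edgeR). Its fall at organ formation (log2 change −0.53, SE 0.11, adjusted p = 0.00028) was lost with the scaling by the authors' RPKM (log2 change −0.20, adjusted p = 0.32). The other TRAP1-like gene, LOC109064870, stayed at or under 1.53 CPM in its stage means. Its rise at gastrulation (log2 change 3.75, adjusted p = 0.047, edgeR) was lost without any 1 blastocyst library and without gastrulation replicate 1 or 2. That left 7 HSP90 genes that rose there. With the authors' RPKM scaling 6 rose, where 21038 of 69265 features did.

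The Aha1 genes, which speed the ATPase cycle of HSP90, divided by copy. LOC109107247 had its lowest values late, with 206, 233 and 232 CPM at cleavage, 139.7, 153 and 160.3 CPM at blastocyst, 63.1, 67.1 and 69.3 CPM at gastrulation and 30.6, 36.2 and 32.7 CPM in the larva. Its fall at gastrulation was kept in every alternative tried (log2 change −1.18, SE 0.10, adjusted p = 8.4e-10, edgeR), and its fall at blastocyst (log2 change −0.57) was lost without cleavage replicate 2 or 3. With the authors' RPKM scaling its fall at organ formation (log2 change −0.55) was lost (−0.22, adjusted p = 0.24), and its fall at hatching (−0.39) became a log2 change of 0.02. LOC109101827 ran the opposite way, with 8.38, 11.00 and 10.6 CPM at organ formation, against 0.477, 0.0977 and 0.493 CPM at gastrulation (log2 change 4.88, SE 0.48, adjusted p = 5.2e-08, edgeR). It was near 0 at gastrulation, so this rise, with the p-value, is a description only. A further copy, LOC109107248, had a mean of 40.2 CPM over the 6 stages. It fell at hatching, and the sign of its change at gastrulation turned with the authors' RPKM scaling. Hikeshi stayed between 16.2 and 26.0 CPM in its stage means, and its log2 change at gastrulation was 0.18 with TMM and −0.80 with the authors' RPKM scaling.

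**Figure D4:**
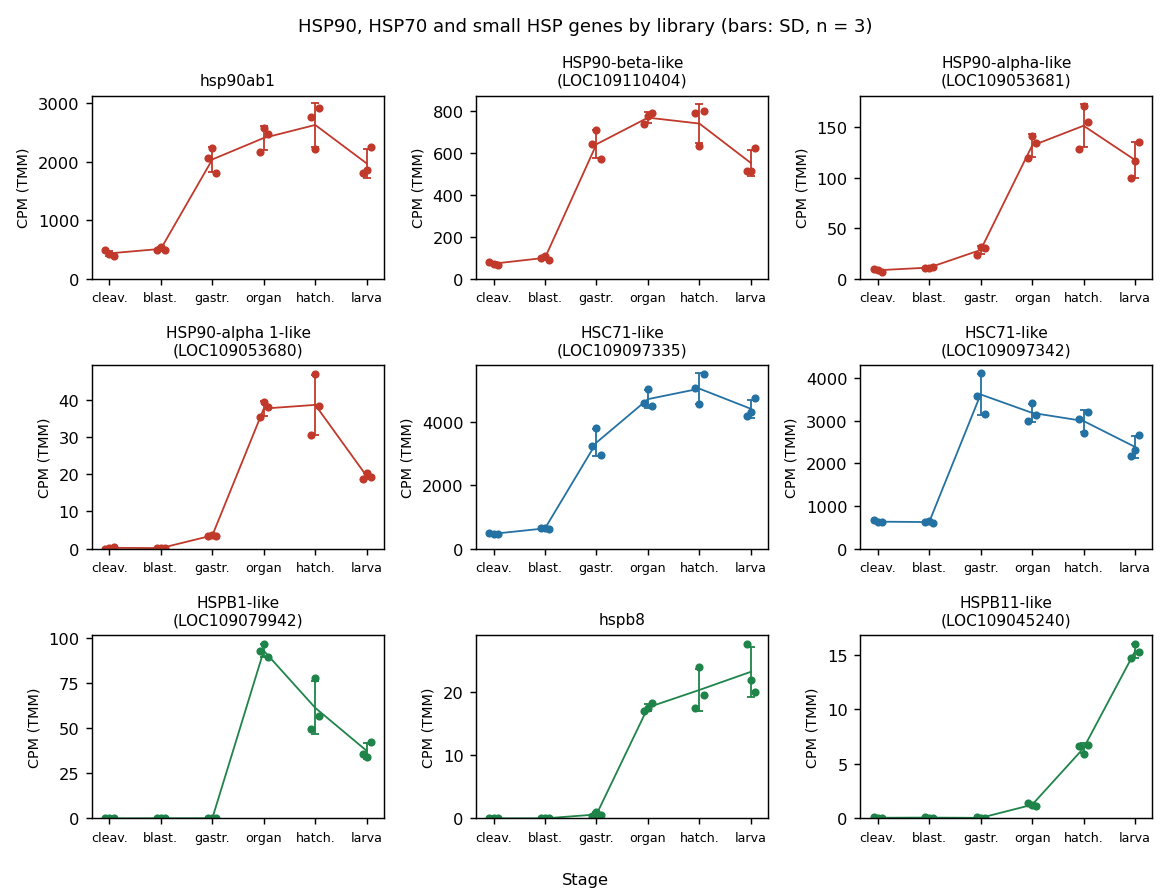
CPM with TMM library sizes (y axis, linear, from 0) of 9 HSP90, HSP70 and small heat shock protein genes at the 6 stages (x axis), 1 panel a gene; points are libraries, lines join the stage means and bars are the SD (n = 3). The HSP90-beta and HSC71 genes step up at gastrulation, the HSP90-alpha genes gain most of their CPM at organ formation, and the small heat shock proteins start from 0 or near it.

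The HSP70 members held the 2 genes with the highest level per length of all members. LOC109097335 (1156 bases) and LOC109097342 (2041 bases) are both named HSC71-like, after the constitutive cytosolic HSP70. LOC109097335 had 483, 465 and 452 CPM in the cleavage libraries, 664, 638 and 611 CPM at blastocyst, 3249, 3815 and 2966 CPM at gastrulation, 4583, 5044 and 4505 CPM at organ formation, 5061, 4551 and 5511 CPM at hatching and 4184, 4298 and 4738 CPM in the larva. The gastrulation libraries lay above all blastocyst libraries (log2 change 2.39, SE 0.10, adjusted p = 1.6e-14, edgeR), with a log2 change of 1.41 under the scaling by the authors' RPKM. It rose once more at organ formation (log2 change 0.49, SE 0.10, adjusted p = 0.00025), a call lost without gastrulation replicate 3 (log2 change 0.31, adjusted p = 0.059). LOC109097342 had 627, 642 and 596 CPM at blastocyst, 3575, 4116 and 3143 CPM at gastrulation and 2178, 2305 and 2663 CPM in the larva (log2 change 2.54, SE 0.11, adjusted p = 1.6e-14 at gastrulation against blastocyst).

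The balance of this pair moved stage by stage. Per unit of length LOC109097335 stood at 1.31 ± 0.0277 times LOC109097342 at cleavage, 1.81 ± 0.057 at blastocyst, 1.64 ± 0.0308 at gastrulation, 2.62 ± 0.0845 at organ formation, 2.98 ± 0.0503 at hatching and 3.27 ± 0.126 in the larva (SD, n = 3 each). The libraries of neighbouring stages did not overlap in this ratio at any step, and it is independent of library scaling. It too was singled out after its values were seen, and is given without a test.

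Of the 10 HSP70 genes tested, 4 rose and 3 fell at gastrulation, where 44.4% of all features rose and 22.3% fell. With the authors' RPKM scaling these counts were 3 and 5, where 21038 of 69265 features rose and 24506 fell. LOC109104102, an HSP105 gene (a nucleotide exchange factor that releases HSP70 from its substrate), was lowest at gastrulation: it had 0.341, 0.781 and 0.281 CPM at gastrulation against 4.22, 5.07 and 5.3 CPM at blastocyst (log2 change −3.31, SE 0.38, adjusted p = 1.3e-07, edgeR), and 5.11, 4.49 and 5.29 CPM in the larva. The HSC71-like gene LOC109094113 had 5.93, 5.47 and 5.17 CPM at gastrulation against 11.9, 12.7 and 12.1 CPM at blastocyst (log2 change −1.15, SE 0.23, adjusted p = 0.00013), and at hatching it rose (log2 change 1.11, SE 0.23, adjusted p = 0.00091). Both falls left no overlap between the libraries and held in every alternative tried. Hspa13 rose at gastrulation (log2 change 2.04) and the HSC71-like gene LOC109103533 fell (log2 change −2.70), both at stage means of at most 4.29 CPM. Another HSP105-like and another HSC71-like gene stayed under 1 CPM in their stage means. Hspa14, a ribosome-associated HSP70, stayed within 26.9 to 43.6 CPM in its stage means, and its log2 change at gastrulation was 0.37 with TMM and −0.61 with the authors' RPKM scaling.

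Small heat shock proteins summed to little before organ formation, with 5.77 RPKM at gastrulation. Of the 20 genes 14 passed the filter on low counts, 8 of them with no counts at cleavage. Those 8 passed through later stages alone, so that the rises of the 14 in the larva against cleavage, with or without larva replicate 3, are a description only. At gastrulation against blastocyst 5 rose and 1 fell, where 44.4% of all features rose and 22.3% fell. At organ formation against gastrulation 9 rose, 5 did not pass the test and 6 were not tested, where 28.1% of all features rose. Genes that were at or near 0 before gastrulation, organ formation or hatching passed the filter through later stages in the same way. Their rises at those steps, with the p-values, are a description only as well. LOC109079942, named HSPB1-like (1980 bases), after the small heat shock protein that binds actin and unfolded chains, had 0, 0 and 0 CPM at cleavage, 0.0948, 0 and 0 CPM at blastocyst, 0, 0 and 0.176 CPM at gastrulation, 92.3, 96.5 and 89.2 CPM at organ formation, 49.1, 77.4 and 56.8 CPM at hatching and 35.8, 33.9 and 42.3 CPM in the larva. All libraries from organ formation on lay above all earlier ones (log2 change 10.33, SE 0.42, adjusted p = 5.9e-13 at organ formation against gastrulation, edgeR), and from there on it had the highest level per length of the class. Its larva level was at least 1091-fold above cleavage, taking 3 counts summed over the stage for the cleavage libraries, all of which had 0.

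The HSPB8 genes were above their blastocyst level at gastrulation already, and HSPB7-like genes rose at organ formation. HSPB8 acts with BAG3 in chaperone-assisted autophagy, and HSPB7 is known from heart and skeletal muscle. Hspb8 (1883 bases) had no counts at cleavage or blastocyst, 0.341, 1.04 and 0.457 CPM at gastrulation, 16.97, 17.4 and 18.1 CPM at organ formation and 27.5, 21.9 and 20.01 CPM in the larva. Its gastrulation level was at least 28.0-fold above blastocyst, counted in the same way, and it rose again at organ formation (log2 change 4.73, SE 0.30, adjusted p = 4.4e-10, edgeR). Its copy LOC109057949 had the highest level per length of the class at gastrulation, with 6.41, 7.58 and 6.23 CPM there against 0, 0.173 and 0.0968 CPM at blastocyst (log2 change 6.18, SE 0.46, adjusted p = 1e-10). The HSPB7-like genes LOC109047972 and LOC109047978 rose at organ formation with log2 changes of 3.25 and 6.84, and LOC109047978 had 7.25, 8.72 and 8.51 CPM there against 0, 0.13 and 0.0352 CPM at gastrulation. The 2 myogenin-like genes came up in the same comparison, at 112 to 144 CPM in sum at organ formation, and their part in these rises was not tested.

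A later set rose at hatching. The HSPB2-like genes LOC109089915 and LOC109090896, of a muscle-associated type, had 2.06, 2.39 and 2.27 CPM and 2.43, 2.87 and 3.14 CPM at hatching, against 0.154, 0 and 0 CPM and 0.103, 0 and 0.0526 CPM at organ formation. They rose by log2 changes of 5.34 and 5.66 (edgeR, adjusted p = 0.00013 and 0.00011). The HSP30-like gene LOC109055308 had 8.21, 9.71 and 8.03 CPM at hatching against 0.308, 1.29 and 1.21 CPM at organ formation (log2 change 3.20, SE 0.52, adjusted p = 9.2e-05), and 14.1, 14.8 and 5.2 CPM in the larva, where replicate 3 was the lowest. LOC109045240 (HSPB11-like) rose at both steps, with 1.39, 1.24 and 1.1 CPM at organ formation, 6.62, 5.92 and 6.76 CPM at hatching and 14.7, 15.99 and 15.2 CPM in the larva. Its further rise in the larva (log2 change 1.25, SE 0.38, adjusted p = 0.035) left no overlap but was lost without each of the 6 libraries in turn (adjusted p 0.082 to 0.13). LOC109046077, its copy, was the only small heat shock protein that fell at gastrulation: its stage means were 2.04, 0.947, 0.0551, 1.24, 3.03 and 6.03 CPM from cleavage to larva. The neighbouring genes hspb8 and LOC109090761 (HSPB1-like) have no protein-coding gene between them in the RefSeq annotation of assembly ASM1834038v1, and LOC109090761 reached 1.64 CPM in its highest stage mean. The other tested small heat shock proteins, LOC109061562 (HSP30-like), LOC109079810 (HSPB7-like) and hspb3, stayed at or below 2.91 CPM in their stage means, and the 6 untested ones had 0 to 77 counts in all.

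DnaJ genes did not move as a class. Of 93 tested, 26 rose and 35 fell at gastrulation, and 23 rose and 27 fell at organ formation, where 44.4% and 28.1% of all features rose and 22.3% and 19.8% fell. With the authors' RPKM scaling these counts were 12 and 56 at gastrulation and 31 and 17 at organ formation. Of 69265 features 21038 rose and 24506 fell at gastrulation on that scale, and 23421 rose and 9185 fell at organ formation. In the larva against cleavage 21 rose and 47 fell, where 58.5% of all features rose and 22.5% fell. The median log2 change was −0.49, against 2.12 over all features. Over protein-coding genes it was 1.10, with 53.9% risen and 28.75% fallen. Without larva replicate 3, 19 DnaJ genes rose and 53 fell (39442 and 16668 of 72008 features). Over all libraries left out in turn the counts lay within 19 to 23 and 42 to 53. The stage of the highest mean was cleavage for 33.3% of tested DnaJ genes, against 16.2% of all tested protein-coding genes. By subfamily, 4 of 10 rose and 4 fell in A, 5 of 23 rose and 11 fell in B, and 17 of 60 rose and 20 fell in C at gastrulation.

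Of the 93 tested DnaJ genes 15 fell at gastrulation and rose at organ formation, as did 7.78% of all tested features, and these comparisons share the gastrulation libraries. With the authors' RPKM scaling 23 did so, and the share of all features was not counted on that scale. DNAJB1 is the classical stress-inducible partner of HSP70. LOC109097783 (DNAJB1-like, 1906 bases) had 18.7, 19.00 and 17.9 CPM at cleavage, 17.1, 16.1 and 17.4 CPM at blastocyst, 1.3, 1.89 and 2.01 CPM at gastrulation, 6.94, 8.08 and 8.67 CPM at organ formation and 12.7, 13.4 and 14.4 CPM in the larva. The gastrulation libraries were the lowest of all 18 (log2 change −3.25, SE 0.18, adjusted p = 8.4e-13 against blastocyst and log2 change 2.15, SE 0.18, adjusted p = 2e-09 at organ formation against gastrulation, edgeR). The other 2 DNAJB1-like genes, LOC109063836 and LOC109103827, fell at gastrulation too (log2 changes −3.12 and −1.86), and both rose at organ formation, LOC109103827 with a call that was lost without gastrulation replicate 1 or 3.

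The DNAJA4-like gene LOC109047693, of the type that works with cytosolic HSP70, fell in 2 steps. It had 61.8, 59.02 and 56.9 CPM at cleavage, 28.3, 34.3 and 36.9 CPM at blastocyst, 3.41, 3.45 and 5.00 CPM at gastrulation and 13.4, 11.3 and 15.7 CPM at organ formation, with no overlap at any of these steps. It fell at blastocyst (log2 change −0.84, SE 0.15, adjusted p = 0.00029, edgeR) and at gastrulation (log2 change −3.06, SE 0.17, adjusted p = 8.9e-13), and rose at organ formation (log2 change 1.75, SE 0.17, adjusted p = 1.6e-08). Dnajc28 (1608 bases) had 19.4, 19.5 and 17.9 CPM at cleavage, 0.341, 0.26 and 0.739 CPM at gastrulation and 3.22, 3.86 and 4.54 CPM in the larva, with the largest fall at gastrulation among members over 5 CPM at blastocyst (log2 change −4.45, SE 0.32, adjusted p = 7.9e-11). Dnajb6, whose mammalian product suppresses polyglutamine aggregation, had 0.887, 1.53 and 2.64 CPM at gastrulation against 18.4, 17.2 and 23.2 CPM at blastocyst (log2 change −3.48, SE 0.31, adjusted p = 2e-09) and did not regain that level.

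Another 14 DnaJ genes rose at gastrulation and fell at organ formation, as did 10.9% of all tested features. With the authors' RPKM scaling 3 did so, where the share of all features was not counted. The 14 held all 4 DNAJC10-like genes, whose product (ERdj5) reduces disulfide bonds in the endoplasmic reticulum. LOC109101965 had 9.19, 8.75 and 8.83 CPM at blastocyst, 44.9, 52.9 and 44.4 CPM at gastrulation and 11.6, 14.7 and 13.1 CPM at organ formation. The gastrulation libraries stood above both neighbours (log2 change 2.41, SE 0.17, adjusted p = 3.6e-11 and log2 change −1.85, SE 0.17, adjusted p = 5.3e-09, edgeR). LOC109050354 was alike, with log2 changes of 2.48 at gastrulation and −2.02 at organ formation. Of the other 2, LOC109095037 kept both of these calls in every alternative (its fall at hatching became a log2 change of 0.02 with the authors' RPKM scaling), and the rise of LOC109093473 (log2 change 1.35) was lost with the authors' RPKM scaling (log2 change 0.37, adjusted p = 0.16).

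The DNAJA2 genes, the main cytosolic type A partners of HSC71, included the DnaJ gene with the highest level per length at every stage, LOC109056300. This gene (1664 bases) had 185, 190.3 and 178 CPM at blastocyst, 401, 481 and 361 CPM at gastrulation and 128, 162 and 153 CPM at organ formation. Its fall at organ formation was kept in every alternative (log2 change −1.49, SE 0.12, adjusted p = 1e-09, edgeR), whereas its rise at gastrulation (log2 change 1.17) was lost with the authors' RPKM scaling (log2 change 0.18, adjusted p = 0.37). LOC109056306 did the same on both counts. Another copy, LOC109078278, rose at organ formation (log2 change 0.80, SE 0.20, adjusted p = 0.0027), with 37.3, 42.02 and 35.6 CPM there against 24.5, 22.4 and 19.5 CPM at gastrulation. The DNAJC7-like gene LOC109082617, whose product binds both HSP70 and HSP90, fell at organ formation (log2 change −1.27, SE 0.12, adjusted p = 1.3e-08), and its log2 change at gastrulation was 0.65 with TMM and −0.33 with the authors' RPKM scaling.

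Some DnaJ genes were highest early and declined. The DNAJC14-like gene LOC109054306, of a membrane protein of the endoplasmic reticulum, had 124, 123 and 118 CPM at blastocyst, 31.2, 37.8 and 33.9 CPM at gastrulation, 20.5, 20.3 and 19.02 CPM at organ formation and 14.5, 12.8 and 11.8 CPM in the larva. It fell at gastrulation (log2 change −1.82, SE 0.11, adjusted p = 2.6e-12, edgeR) and again at organ formation (log2 change −0.78, SE 0.11, adjusted p = 3.2e-06), in every alternative. Dnajc9, a cochaperone of histones H3 and H4, had 21.6, 23.8 and 25.9 CPM at blastocyst against 49.00, 36.9 and 51.1 CPM at cleavage (log2 change −0.94, SE 0.17, adjusted p = 0.00043). The cochaperone of the ribosome DNAJC2 (LOC109111009) had stage means of 36.9, 54.4, 44.6, 27.8, 20.9 and 13.9 CPM. Its fall at hatching (log2 change −0.41, SE 0.14, adjusted p = 0.032) was lost without any 1 organ formation library and without hatching replicate 2 or 3, and the log2 change was 0.00 with the authors' RPKM scaling.

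Of the cochaperones known from vesicle traffic in neurons, dnajc6 was highest late, and copies of DNAJC5 differed. Dnajc6 (auxilin, which uncoats clathrin vesicles with HSC71; 4829 bases) had 0.758, 0.806 and 0.0978 CPM at cleavage, 2.25, 2.8 and 2.43 CPM at gastrulation, 7.51, 6.39 and 6.31 CPM at organ formation, 33.4, 33.1 and 34.8 CPM at hatching and 49.8, 52.96 and 43.2 CPM in the larva. Each of these stages lay above the one listed before it without overlap, and dnajc6 rose at gastrulation (log2 change 1.96, SE 0.30, adjusted p = 6.6e-06, edgeR), organ formation (log2 change 1.42, SE 0.26, adjusted p = 0.0001) and hatching (log2 change 2.33, SE 0.24, adjusted p = 1.8e-07) in every alternative. For the larva the log2 change was 0.53 (adjusted p = 0.14). DNAJC5 is the cysteine string protein of synaptic vesicles. Its copy LOC109094879 had 4.19, 4.25 and 2.25 CPM at blastocyst, 18.6, 21.3 and 18.3 CPM at gastrulation, 50.5, 42.5 and 46.2 CPM at hatching and 60.7, 66.01 and 61.5 CPM in the larva. It rose at gastrulation (log2 change 2.45, SE 0.18, adjusted p = 6.2e-11) and at hatching (log2 change 0.84, SE 0.16, adjusted p = 0.00036), and the copies LOC109094875 (log2 change 1.63, SE 0.19, adjusted p = 1.3e-06) and dnajc5 (log2 change 0.52, SE 0.15, adjusted p = 0.0092) rose at hatching, the call of dnajc5 being lost without organ formation replicate 2 or hatching replicate 2. Of the other tested copies, LOC109054346 fell at gastrulation (log2 change −1.37, SE 0.18, adjusted p = 7.1e-07) and rose at organ formation (log2 change 1.76, SE 0.18, adjusted p = 4.3e-08), LOC109054367 fell at gastrulation (log2 change −0.62, SE 0.18, adjusted p = 0.005), and LOC109106821 had no call between neighbouring stages with TMM (with the authors' RPKM scaling it fell at gastrulation, log2 change −3.59, adjusted p = 0.015).

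Cochaperones of other compartments moved singly. Dnajc3 fell at gastrulation (log2 change −1.14, SE 0.19, adjusted p = 2.1e-05, edgeR) to 7.23, 10.2 and 11.3 CPM, against 20.2, 20.8 and 22.9 CPM at blastocyst, and rose at organ formation (log2 change 1.32, SE 0.19, adjusted p = 6.4e-06). Its copy LOC109066055 fell at gastrulation (log2 change −0.47, SE 0.10, adjusted p = 0.00022) and at organ formation (log2 change −0.50, SE 0.10, adjusted p = 0.00019), the second of these a call that was lost with the authors' RPKM scaling (log2 change −0.18, adjusted p = 0.37). The DNAJB11-like gene LOC109078454, of another cochaperone in the endoplasmic reticulum, fell at gastrulation (log2 change −1.61, SE 0.18, adjusted p = 1.1e-07) and had no call after it. Dnajc19, a part of the mitochondrial import motor, rose at organ formation (log2 change 1.35, SE 0.32, adjusted p = 0.0012), with 10.03, 11.00 and 9.51 CPM against 5.46, 3.32 and 3.38 CPM at gastrulation. The DNAJC27 gene LOC109047263, for a Rab-like GTPase with a J domain, rose at gastrulation (log2 change 3.51, SE 0.39, adjusted p = 7.4e-08) and had no later call between neighbouring stages. Dnajc24, needed to make diphthamide, fell at gastrulation (log2 change −2.01), and the DNAJC5B-like gene LOC109091274 had the largest fall of all tested members there (log2 change −5.05, SE 0.65, adjusted p = 9.9e-07), with 0.205, 0.0326 and 0.176 CPM at gastrulation against 4.6, 4.35 and 3.9 CPM at blastocyst.

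**Figure D5:**
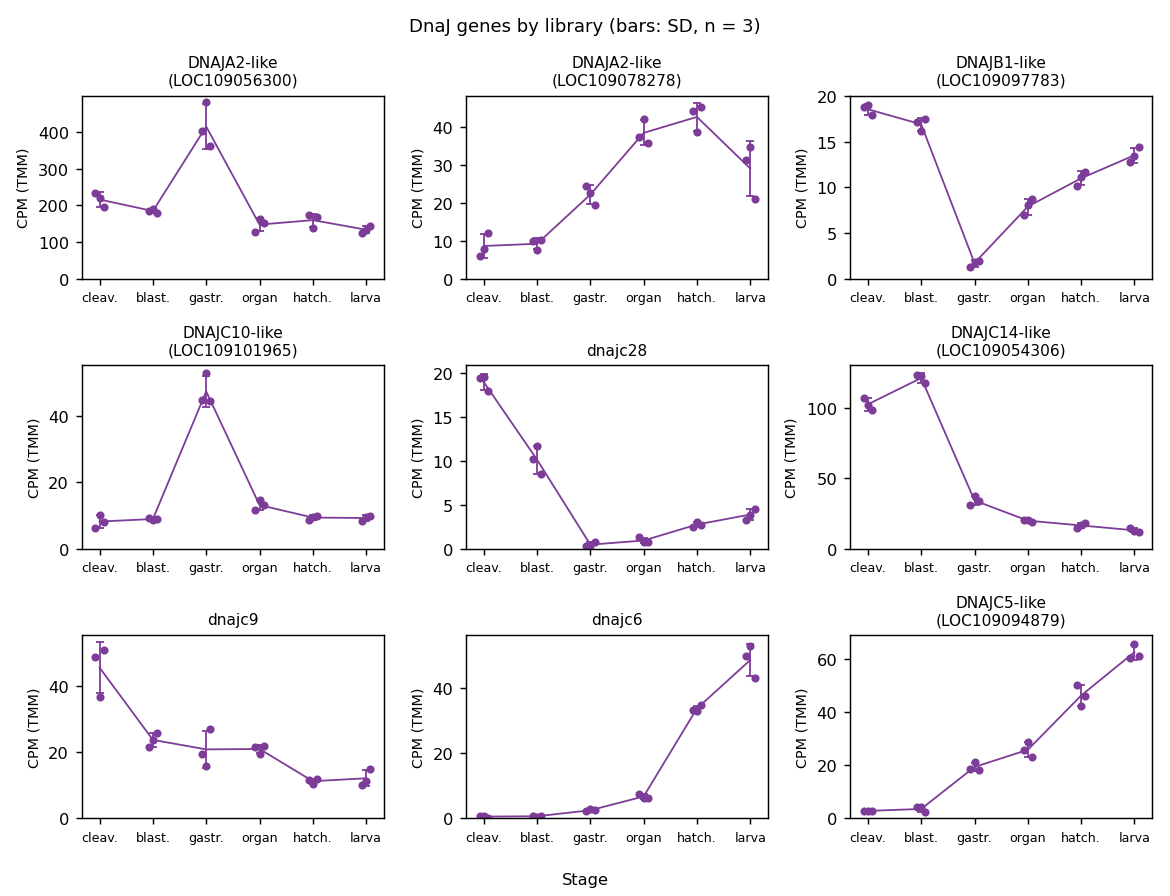
CPM with TMM library sizes (y axis, linear, from 0) of 9 DnaJ genes at the 6 stages (x axis), 1 panel a gene; points are libraries, lines join the stage means and bars are the SD (n = 3). The DNAJB1-like gene and dnajc28 are lowest at gastrulation, the DNAJC10-like gene and the DNAJA2-like gene LOC109056300 are highest there, the DNAJC14-like gene declines from gastrulation on, and dnajc6 reaches 43.2 to 52.96 CPM in the larva.

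Copies under one name moved in opposite directions in some families. Of 56 product names, 42 had 2 or more tested copies, and in 12 of these a copy rose while another fell in the same comparison of neighbouring stages, at most 6 in any 1 comparison; with the authors' RPKM scaling there were 9 such names. DNAJC16 is one: dnajc16 had 0.614, 0.879 and 1.97 CPM at gastrulation against 0.0237, 0.222 and 0.169 CPM at blastocyst (log2 change 3.07, SE 0.61, adjusted p = 0.00015, edgeR), and LOC109086152 had stage means of 35.9 CPM at gastrulation and 54.7 CPM at blastocyst (log2 change −0.60, SE 0.11, adjusted p = 8.8e-05). Dnajc16 was near 0 at blastocyst, so its rise, with the p-value, is a description only, although it enters the count of 12 names. DNAJA3, the mitochondrial type A protein, is another: at organ formation LOC109063091 fell to 12.7, 19.3 and 15.3 CPM, against 34.2, 37.3 and 30.3 CPM at gastrulation (log2 change −1.10, SE 0.16, adjusted p = 4e-06), whereas LOC109086983 rose to 13.9, 19.2 and 14.7 CPM, against 10.7, 11.4 and 9.32 CPM (log2 change 0.61, SE 0.16, adjusted p = 0.0039). The rise of LOC109086983 was lost without gastrulation replicate 3 (adjusted p = 0.075). In 14 of the 42 names all tested copies had their highest mean at the same stage. Neither this count nor that of opposite calls was made for copies of other genes. Of the 129 members, 16 had no call in any comparison of neighbouring stages, and the share of all tested features without a call was not counted.

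Between larva and hatching few members moved, and the counts were unstable. The 6 rises became 1 without hatching replicate 1 or 3 and 3 without any other library of these stages, larva replicate 3 included. The 10 falls were 6 without hatching replicate 1, 4 without hatching replicate 3 and 10 without larva replicate 3. Of all features 3686 rose and 4248 fell in the main fit. Without hatching replicate 1 these were 1725 and 2488, and without hatching replicate 3 they were 1712 and 2375. Without larva replicate 3 they were 1992 and 3179. The HSC71-like gene LOC109088791 was highest in larva replicate 3. It had 5.81, 6.7 and 20.2 CPM in larva replicates 1 to 3, against 2.26, 2.83 and 2.34 CPM at hatching (log2 change 2.13, SE 0.53, adjusted p = 0.01, edgeR), and without larva replicate 3 the log2 change was 1.31 (adjusted p = 0.19). The call was also lost without hatching replicate 1 or 3. Cochaperones of the endoplasmic reticulum were not uniform across the larva libraries. Dnajc3, which serves the lumenal HSP70 BiP, had 22.3, 22.9 and 38.9 CPM in larva replicates 1 to 3, and the DNAJB11-like gene LOC109078454 had 40.5, 41.2 and 59.1 CPM, both highest in replicate 3, whereas the DNAJC14-like gene LOC109054306, with 14.5, 12.8 and 11.8 CPM, was lowest there. That library is the one with 2372 CPM of exocrine pancreas genes, and the part of these in the values was not tested. The DNAJB5-like gene LOC109063203 rose in the larva in every alternative (log2 change 2.25, SE 0.50, adjusted p = 0.0046), with 3.68, 4.63 and 3.66 CPM in the larva against 0.912, 0.733 and 0.872 CPM at hatching. The DNAJA2-like gene LOC109109418 fell in every alternative (log2 change −0.67, SE 0.13, adjusted p = 0.0017).

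Other chaperone genes, taken by product name, are set beside the members. All 13 tested subunits of the cytosolic chaperonin TRiC/CCT, which folds actin and tubulin, rose at gastrulation, as did all 13 tested prefoldin subunits, which hand chains to it, where 44.4% of all features rose. With the authors' RPKM scaling 7 rose and 1 fell in each list, where 21038 of 69265 features rose and 24506 fell. CCT2 (LOC109062604) had stage means of 436 CPM at gastrulation and 73.3 CPM at blastocyst (log2 change 2.57, SE 0.13, adjusted p = 1.3e-13, edgeR). Of 23 tested HSP90 partners 13 rose and 6 fell at gastrulation, and of 13 HSP70 partners 5 rose and 5 fell, against the same 44.4% of all features that rose and 22.3% that fell. Stip1, which links HSP70 to HSP90, had a log2 change of 0.69 at gastrulation with TMM and −0.30 with the authors' RPKM scaling. The prostaglandin E synthase 3-like gene LOC109058952 (p23, which holds HSP90 in its closed form) rose there (log2 change 1.44, SE 0.11, adjusted p = 2.5e-10).

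Of 20 HSP70 genes outside the wording of the rule, 6 rose and 6 fell at gastrulation (all features 44.4% and 22.3%), and 8 rose and 1 fell at hatching (17.4% and 12.2%). The BiP-like gene LOC109080967, the HSP70 of the endoplasmic reticulum, rose at hatching (log2 change 0.74, SE 0.20, adjusted p = 0.0072, edgeR), and had 306, 308 and 496 CPM in larva replicates 1 to 3. Of 26 tested genes for folding in the endoplasmic reticulum 10 rose and 9 fell at gastrulation (all features 44.4% and 22.3%) and 13 rose and 2 fell at organ formation (28.1% and 19.8%). The calnexin-like gene LOC109102540, a lectin chaperone there, rose at gastrulation (log2 change 2.78, SE 0.11, adjusted p = 6.6e-15).

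Heat shock factors are the transcription factors that bind heat shock gene promoters. Of 14 tested genes of factors and their binding proteins 7 rose and 4 fell at gastrulation (all features 44.4% and 22.3%), and none rose and 6 fell at organ formation (28.1% and 19.8%). The HSF1-like gene LOC109052035 had 33.5, 33.1 and 34.5 CPM at blastocyst, 168, 182 and 174 CPM at gastrulation and 59.1, 63.7 and 65.4 CPM at organ formation. Its gastrulation libraries stood above all others (log2 change 2.37, SE 0.12, adjusted p = 2.4e-13 and log2 change −1.48, SE 0.12, adjusted p = 9.6e-10, edgeR).

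The genes unc45b and LOC109069638, for the HSP90 partner that folds muscle myosin, were singled out after their values were seen. Unc45b had 147, 169 and 149 CPM at organ formation, against 17.4, 21.6 and 18.7 CPM at gastrulation, and LOC109069638 had stage means of 76.6 CPM at organ formation and 5.90 CPM at gastrulation. Both rose at organ formation (log2 change 3.00, SE 0.35, adjusted p = 2.4e-06 and log2 change 3.71, SE 0.27, adjusted p = 8.5e-10, edgeR). Of all 23 tested HSP90 partners 6 rose and 10 fell there (all features 28.1% and 19.8%). The HSP90-alpha 1-like genes and 9 of the 14 tested small heat shock proteins rose in the same comparison, and a link between these rises was not tested. In the larva unc45b had 58.8, 62.1 and 33.3 CPM, with replicate 3 the lowest.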

How the data were processed

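RNA-seq libraries of 18 samples were used, 3 per stage, grouped by the labels. The deposited counts are whole reads per feature with no normalization, per the file headers, and the 18 count files equal the series table. The authors also deposited RPKM, made from these counts by feature length and by a library size not given in the sources used here. Lengths and those library sizes were worked out from the ratio of count to RPKM. The submitters' processing notes name HISAT2, StringTie 1.3.3b, featureCounts and edgeR. Their settings, the build and the handling of reads that match several genes were not given in the sources used here. No coordinates or sequences are shown for that reason. Gene names are those of the deposited table, with RefSeq's gene table (assembly ASM1834038v1) for names and gene order alone, where 117 members were matched.

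Counts of 69265 of 90808 features that passed filterByExpr were fitted with edgeR 4.0.16 in R 4.3.3, with TMM factors, 1 coefficient per stage over all 18 libraries and robust quasi-likelihood tests. Benjamini-Hochberg adjustment ran over all tested features of a comparison, and a feature with an adjusted p under 0.05 is said to have risen or fallen. A gene at or near 0 in a stage can pass the filter through other stages alone. Its change between such stages, with the p-value, is a description only. CPM use TMM library sizes. Stages with no counts were set to 3 counts, summed over the stage, for bounds on folds. Libraries of 1 stage differed by a chi-square of at least 3.68 per degree of freedom, so no library's counts copied another's, while repeat preparations of 1 RNA pool cannot be told apart by this. Counts were simulated for larva against hatching with 69265 features, of which 100 changed 2-fold and 100 changed 4-fold. Of these, 19% of 2-fold and 88% of 4-fold changes were recovered, with 3 false calls. The spread was fixed (dispersion 0.05 for every feature) and not estimated from these libraries, so these figures describe the simulation alone.

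The members, gene lists and rule for named genes were chosen with earlier results of these data known. The rule took the 5 highest members of each class by mean CPM (8 for DnaJ), the 3 largest rises and 3 largest falls per comparison over 5 CPM, and 2 genes of each network list. Chosen after their values were seen were LOC109046077, LOC109047693, LOC109054346, LOC109054367, LOC109061562, LOC109063091, LOC109063203, LOC109063836, LOC109064870, LOC109078278, LOC109079810, LOC109086983, LOC109089915, LOC109090761, LOC109090896, LOC109091274, LOC109093473, LOC109094875, LOC109094879, LOC109095037, LOC109103533, LOC109103827, LOC109106821, LOC109109418, dnajc16, dnajc19, dnajc3, hspa13 and hspb3. Alternatives were DESeq2 1.42.0, its size factors, the library sizes implied by the authors' RPKM, no filter, a replicate block and leaving out each library.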

Additional observations from a re-analysis of the deposited data

How the results depend on the processing

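With TMM scaling 45 members rose and 40 fell at gastrulation, and 40 rose and 30 fell at organ formation. In the larva against cleavage 49 rose and 49 fell, where 58.5% of all features rose and 22.5% fell. Of protein-coding genes 53.9% rose and 28.75% fell. Without larva replicate 3 the larva counts of members were 47 and 56 (39442 and 16668 of 72008 features). With the library sizes implied by the authors' RPKM, 1 member rose at blastocyst, 25 rose and 66 fell at gastrulation, 18 fell at organ formation, 52 rose and 0 fell at hatching, and 3 fell in the larva against hatching; this choice moves the median change of all features and the cause of the remaining moves was not tested. The counts of all features on that scale are given above. Without a filter on low counts 21 rose and 10 fell at blastocyst, where 16040 and 2545 of 86471 features did. In the larva against hatching 6 fell without the filter (3363 features). With DESeq2's size factors 6 fell there (3447 of 69265 features), and DESeq2 called 12 rises there (5773 features). With 1 library left out, 8706 to 16185 of all features rose at blastocyst and 2289 to 4173 fell. Leaving out 1 library gave 7 to 26 rises and 7 to 18 falls at blastocyst, 38 to 42 and 39 to 49 at gastrulation, 30 to 38 and 24 to 32 at organ formation, 18 to 23 and 8 to 10 at hatching, 1 to 3 and 4 to 10 in the larva against hatching, and 47 to 52 and 44 to 56 in the larva against cleavage. In these fits 119 to 124 members differed among the 6 stages. Of all features 26935 to 30411 rose and 14849 to 16889 fell at gastrulation. At organ formation these were 15938 to 18028 and 12274 to 13527, and at hatching 9807 to 10143 and 5970 to 6677. In the larva they were 1712 to 3171 and 2375 to 3932 against hatching, and 39442 to 41398 and 14773 to 16668 against cleavage.

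Over 45 pairs of libraries with the same replicate number at different stages, correlations of deviations from the stage means were −0.123 to 0.0847. They exceeded 0.1 in none, so no pairing by number was seen. A pair of unlike number reached 0.143, so this cutoff cannot show that pairing is absent. With the replicate number as a block 8 members rose and 18 fell at blastocyst, 46 and 41 did so at gastrulation, 40 and 30 at organ formation, 24 and 12 at hatching, 4 and 8 in the larva against hatching and 49 and 49 in the larva against cleavage, and 121 differed among stages. Of all 69265 features 10009 rose and 4094 fell at blastocyst with the block, and 30291 and 15093 did so at gastrulation. At organ formation these were 18671 and 13268, and at hatching 11428 and 7791. In the larva they were 3020 and 3878 against hatching and 40277 and 15276 against cleavage. For 4 of 18 libraries the mean correlation with libraries of other stages was highest for their own replicate number.

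Signs turned with the authors' RPKM scaling for hspa14 (−0.61), LOC109082617 (−0.33), LOC109107248 (−0.70), hikeshi (−0.80), LOC109059642 (−0.67), dnajc5 (−0.84), stip1 (−0.30) and LOC109065378 (−0.23) at gastrulation, and for LOC109107247 (0.0184), LOC109111009 (0.0044) and LOC109095037 (0.0227) at hatching (log2 changes); the cause was not tested. Of 210 called changes of named genes, 115 held in every alternative, 66 were lost without some library and 58 were lost with the authors' RPKM scaling. The block changed 9 of 470 calls of named genes. At cleavage replicate 3, the shallowest library, a gene at 1 CPM rests on few counts, which limits the low members.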
